A study of Homo sapiens with 6 samples.

Results

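The genes described here encode the subunits of the proteasome, the protease that degrades ubiquitin-tagged proteins. They were taken as the protein-coding genes with a symbol that starts PSMA, PSMB, PSMC or PSMD and ends in a number, leaving out the interferon-inducible catalytic subunits PSMB8, PSMB9 and PSMB10 and all pseudogenes. This gave 36 of the 78932 gene identifiers, 16 for the core particle and 20 for the regulatory particle. RNA was sequenced from Karpas-45, an established cell line of human T-lineage acute lymphoblastic leukemia, that carried a GFP-linked lentiviral short hairpin RNA against the transcription factor MEF2C (labelled shMEF2CKD2, genotype MEF2C KD) or a scramble control (genotype WT). Both groups were labelled untreated and consisted of bone marrow derived leukemic blasts of this single line, and the study's design text states that GFP-positive cells were sorted 120 hours after transduction. There were 3 libraries per group, named technical replicates in the labels. The p-values therefore rest on technical spread and not on the spread between independent transductions.

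The proteasome consists of a barrel, the core particle, and a cap, the regulatory particle. The barrel is built from outer rings of alpha subunits, encoded by PSMA genes, which gate the entry, and inner rings of beta subunits, encoded by PSMB genes, some of which carry the proteolytic sites. The cap has a base with a ring of ATPases, encoded by PSMC genes, that unfold substrates, and a lid of non-ATPase subunits, encoded by PSMD genes, that helps to remove ubiquitin. In lymphoid cells the complex also produces peptides for MHC class I molecules, and in many cell types its genes are raised together by the transcription factor NRF1 (gene NFE2L1) when proteolysis is impaired.

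Reads assigned to genes numbered 50991704 to 97077335 in the MEF2C hairpin libraries and 45560303 to 63228784 in the scramble libraries. Levels below are in CPM, the usual library-size normalised count, with library sizes scaled by TMM except for the cell type markers and their sums. The hairpin's target could not be checked: MEF2C received 2, 0 and 0 reads in the MEF2C hairpin libraries and 2, 1 and 0 reads in the scramble libraries, all under the 3 reads used as a floor for detection. All 8 T-lineage markers examined exceeded 1 CPM in every library. Their summed level was 1354 to 1382 CPM in the MEF2C hairpin libraries against 1253 to 1276 CPM in the scramble libraries. CD3D, CD3G, CD5, CD7 and PTCRA were higher in every MEF2C hairpin library than in any scramble library. CD5 measured 17.77 to 20.55 CPM in MEF2C hairpin against 8.003 to 9.087 CPM in scramble libraries. CD7 measured 60.09 to 61.29 against 37.42 to 40.72 CPM in those groups, so single markers shifted far more than the sum. CD2 and CD3E overlapped between the groups. TRAC went the other way, at 32.02 to 34.35 CPM in MEF2C hairpin against 35.01 to 35.41 CPM in scramble libraries. Of 4 B-lineage markers 1, CD79A, exceeded 1 CPM in every library, and MS4A1 had at most 1 read. Their sum was 4.09 to 4.22 CPM in the MEF2C hairpin against 2.99 to 3.54 CPM in the scramble libraries. None of 4 myeloid markers exceeded 1 CPM in every library, and their sum was 1.47 to 2.23 CPM in the MEF2C hairpin against 1.45 to 1.82 CPM in the scramble libraries. Of 4 markers of embryonic kidney cells, listed to look for cells that package virus, PODXL and CRABP2 exceeded 1 CPM in every library. PAX2 had at most 1 read. The summed level was 26.4 to 27.6 CPM in the MEF2C hairpin against 23.6 to 25.3 CPM in the scramble libraries. PODXL held most of that sum, at 23.47 to 25.22 against 20.96 to 21.81 CPM in those groups, and GPC3 was also higher. CRABP2 went the other way, at 1.726 to 2.298 CPM in MEF2C hairpin against 2.372 to 3.179 CPM in scramble libraries. The part of these marker shifts in the results below was not tested. MEF2C hairpin replicate 3 stood apart in that 16.1% of its reads aligned to more than 1 place, against 3.56 to 6.86% in the other libraries, and counts are also given without it.

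More genes of the regulatory particle were lower than higher in MEF2C hairpin cells, and genes of the core particle went both ways. Of 20 regulatory particle genes 11 were lower and 1 was higher, with a median log2 fold change of -0.10. Of 15 tested core particle genes 2 were lower and 5 were higher, with a median of -0.02. The sign of the core median rested on single libraries and on the processing. It was 0.03 without scramble replicate 3, 0.01 without MEF2C hairpin replicate 1 and -0.05 without scramble replicate 1. With all libraries and a correction for GC content and length it was 0.01. The core median exceeded the regulatory one by 0.08 in log2 with all libraries, by 0.13 without scramble replicate 3 and by 0.04 without scramble replicate 1. The number of core genes lower was 1 without scramble replicate 2 and 3 without MEF2C hairpin replicate 3. All changes were small, between -0.28 and 0.13 on the log2 scale. The test was edgeR's quasi-likelihood test over 17677 genes with a threshold of 0.05 on the Benjamini-Hochberg adjusted p. Of all genes tested, 15.3% were lower and 13.5% were higher, with a median log2 fold change of 0.00. Without MEF2C hairpin replicate 3, 10 regulatory and 3 core particle genes were lower and 6 subunit genes higher, and PSMD9 lost its call (edgeR adjusted p = 0.208).

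**Figure D1:**
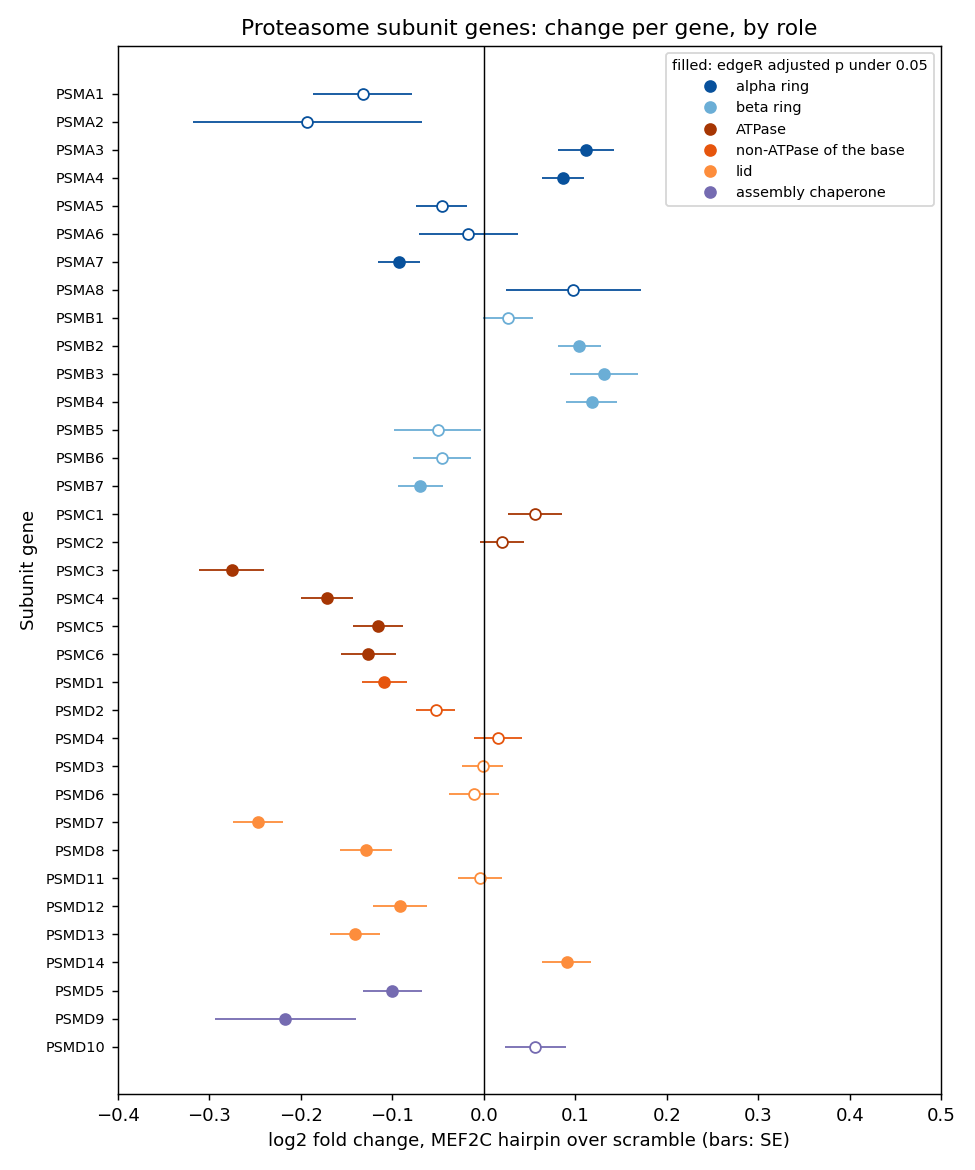
The log2 fold change of MEF2C hairpin over scramble is plotted for the 35 tested subunit genes, grouped by role, with bars for the standard error (n = 3 libraries per group) and filled points for an edgeR adjusted p under 0.05. The filled points of the ATPases all lie left of 0, with PSMC3 farthest at -0.28, and the only filled regulatory particle point right of 0 is the lid gene PSMD14 at 0.09.

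The shares called also differed with the level of expression. Among the 2547 tested genes of at least 100 CPM, 57.4% passed the test, 44.9% being lower and 12.6% higher, with a median log2 fold change of -0.05. Of the 13 regulatory particle genes at that level 6 were lower and 1 higher, with a median of -0.05, a share of lower genes (46.2%) near that background. Of the 7 core particle genes at that level 2 were lower (28.6%) and 3 higher (42.9%), with a median of 0.03. Among the members under 100 CPM, 5 of 7 regulatory particle genes were lower and none higher. Of 8 core particle genes under 100 CPM none was lower and 2 were higher. The shares of all genes under 100 CPM were not computed separately. Over all levels 15.3% were lower (2711 genes) and 13.5% higher (2386 genes). Of these, 1143 lower and 320 higher genes were at 100 CPM or above. The share of lower genes under 100 CPM thus lay below 15.3%. In 20 of the 35 tested members all libraries of one group lay above those of the other, against 39.9% of all tested genes. Such separation held in 14 of 20 regulatory particle genes and 6 of 15 core particle genes. The 39.9% covers genes of every level. It was not computed for genes of at least 100 CPM, so the members' share cannot be judged against genes of like level. The particles were not compared by a test, because the members were chosen with results of these data known.

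**Figure D2:**
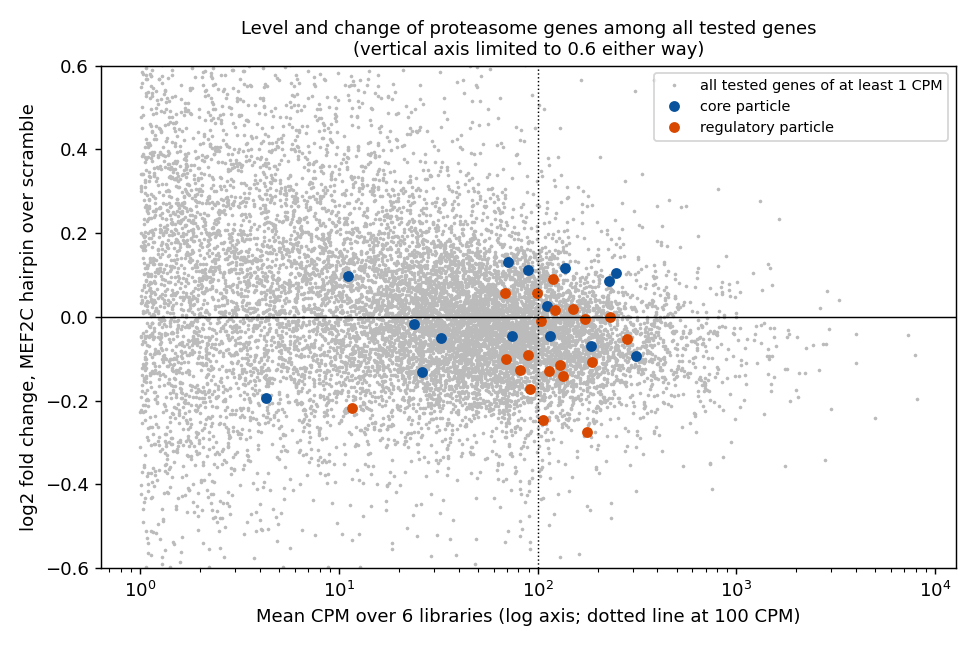
Each point is a tested gene of at least 1 CPM, with its mean CPM over the 6 libraries on the horizontal log axis. The vertical axis gives its log2 fold change of MEF2C hairpin over scramble, and genes beyond the limits of that axis are not shown. Genes to the right of the dotted line at 100 CPM lie on balance below 0 (median -0.05), and of the regulatory particle genes 11 passed the test below 0 and 1 above it, against 2 and 5 of the core particle genes.

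Summed over all members, the regulatory particle measured 2494, 2477 and 2464 CPM in MEF2C hairpin replicates 1 to 3 and 2586, 2609 and 2612 CPM in scramble replicates 1 to 3. The summed core particle measured 1697, 1679 and 1664 CPM in the MEF2C hairpin libraries, against 1635, 1670.1 and 1676 CPM in the scramble libraries. The regulatory sums did not overlap between the groups, whereas the core sums did. The ratio of core to regulatory reads was 0.680, 0.678 and 0.675 in the MEF2C hairpin libraries and 0.632, 0.640 and 0.641 in the scramble libraries. In a bulk sample such sums cannot tell fewer cells from less RNA per cell. They add reads over genes of different length and so describe reads, not complexes.

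One sequence element stood near the starts of genes of both particles that moved in opposite directions or did not pass the test, and 6 examples before the start are shown for that reason. TGACNNNGC is the core of the antioxidant response element, which NRF1 binds in proteasome promoters. RefSeq promoter windows on GRCh38.p14, from 250 bases before to 50 after a start, were matched for 31 of the 36 members, 12 of the core and 19 of the regulatory particle, in 37 windows. Letters are given 5′ to 3′ on the strand that reads TGACNNNGC, capitals mark that match, and each stretch adds 10 bases on either side.
PSMA4, higher, chr15:78540650-78540678, plus strand: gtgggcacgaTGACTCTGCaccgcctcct
PSMB3, higher, chr17:38752627-38752655, plus strand: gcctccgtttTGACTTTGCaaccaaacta
PSMC5, lower, chr17:63827654-63827682, minus strand: agggcggcgcTGACACAGCagatccggtc
PSMD5, lower, chr9:120843038-120843066, minus strand: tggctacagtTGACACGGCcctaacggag
PSMD12, lower, chr17:67366724-67366752, minus strand: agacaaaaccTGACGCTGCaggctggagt
PSMD3, not past the test, chr17:39980760-39980788, plus strand: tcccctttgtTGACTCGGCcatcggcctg

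The element, searched on both strands, was found in 9 of the 37 windows (24.3%), against 13.3% of 35116 promoter windows of all genes. Of the 9 genes 2 were higher, 6 lower and 1 did not pass the test. A looser form, TGA and GCA with any 4 bases between, which can share its bases with the first, was in 13 windows (35.1%, against 12.5% of all), with 5 of 13 genes higher and 5 lower. CCAAT, the box bound by NF-Y, was in 17 windows (45.9%, against 34.6%), before 5 genes that were higher and 4 that were lower. CCGGAAG, an ETS-type site, was in 12 windows (32.4%, against 10.3%), before 2 core and 10 regulatory particle genes, of which 1 was higher and 6 lower in all. The E-box CACGTG was in 2 windows (5.41%, against 7.26%). The MEF2 box, to which MEF2 proteins bind, was in 0 of the 37 windows and in 2.99% of all. TGACGTCA and its inner part TGACGT were in 0 and 2 windows (against 1.85 and 7.98% of all), CCCCGCCC in 12 (32.4%, against 22.8%) and GATTGG, which overlaps CCAAT on the other strand, in 7 (18.9%, against 15.1%). A match of letters is a description of these windows only.

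The ATPases of the base, which pull substrates into the barrel, held the largest fall of all members. PSMC3 (ENSG00000165916.9, chromosome 11, 47418769 to 47426473 in GRCh38) measured 169, 157 and 151 CPM in the MEF2C hairpin libraries, against 187, 200.5 and 191 CPM in the scramble libraries. All MEF2C hairpin values lay below all scramble values, and the difference was -0.28 in log2 (SE 0.0352; edgeR adjusted p = 1.1e-05). PSMC4 (ENSG00000013275.8, chromosome 19, 39971005 to 39981441) measured 86.5, 85.8 and 85.8 CPM in the MEF2C hairpin libraries and 95.6, 97.6 and 97.4 CPM in the scramble libraries. The groups stood apart by more than the spread within either, and the difference was -0.17 in log2 (SE 0.0284; edgeR adjusted p = 9.35e-06). PSMC5 and PSMC6 fell by 0.12 and 0.13 on the log2 scale. Exons of the opposite-strand gene FTSJ3 cover 27.2% of the principal PSMC5 transcript, and FTSJ3 itself was lower (log2 fold change -0.10, edgeR adjusted p = 0.00505). The sources used here do not say whether the counting used strand. The other ATPases did not pass the test: PSMC1 averaged 102 ± 3.95 CPM in MEF2C hairpin and 97.8 ± 1.78 CPM in scramble libraries, and PSMC2 averaged 152 ± 2.09 and 150.1 ± 1.38 CPM in those groups (SD, n = 3 each). Exons of the opposite-strand gene NRDE2 cover 82.1% of the principal PSMC1 transcript. PSMC1 also has the most pseudogene copies listed, 13, which together received 0.663% as many reads as the gene.

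Of the non-ATPase subunits of the base, the large scaffold subunit PSMD1 fell by 0.11 on the log2 scale (SE 0.0242, edgeR adjusted p = 0.00056), with 181 ± 3.21 CPM in MEF2C hairpin and 195 ± 4.79 CPM in scramble libraries (SD, n = 3 each). PSMD2, the other scaffold subunit, averaged 275 ± 1.59 CPM in MEF2C hairpin and 285 ± 5.24 CPM in scramble libraries (SD, n = 3 each) and missed the threshold (edgeR adjusted p = 0.0662), although its groups did not overlap. The ubiquitin receptor PSMD4 had 123 ± 1.84 and 122 ± 1.82 CPM in the same order (SD, n = 3 each; edgeR adjusted p = 0.715).

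The lid divided into genes that fell, genes that did not pass the test, and the deubiquitinase gene. PSMD7, which encodes the partner of the deubiquitinase (ENSG00000103035.11, chromosome 16, 74296775 to 74306288), measured 97.3, 97.0 and 96.4 CPM in the MEF2C hairpin libraries, against 112, 117 and 117 CPM in the scramble libraries. This was the smallest adjusted p of all members, with groups far apart (-0.25 in log2 with SE 0.0276, adjusted p = 4.23e-09). Exons of an opposite-strand gene cover 50.4% of its principal transcript in GENCODE 29. PSMD13, a structural lid subunit, measured 126, 127 and 132 CPM in the MEF2C hairpin libraries and 143, 136 and 145 CPM in the scramble libraries, again without overlap (-0.14 in log2 with SE 0.0272, adjusted p = 9.17e-05). Exons of the opposite-strand gene SIRT3, which did not pass the test (edgeR adjusted p = 0.800), cover 15.9% of its principal transcript. PSMD8 and PSMD12 fell by 0.13 and 0.09 on the log2 scale. PSMD14, the deubiquitinase that cuts ubiquitin chains off substrates (ENSG00000115233.12, chromosome 2, 161308038 to 161411717), went the other way. It measured 125, 124 and 118 CPM in the MEF2C hairpin libraries and 115, 113 and 117 CPM in the scramble libraries. The groups did not overlap, and the difference was 0.09 in log2 (SE 0.0272; edgeR adjusted p = 0.00967). The deubiquitinase gene and its partner gene thus changed in opposite directions. PSMD3, PSMD6 and PSMD11 had log2 fold changes between -0.01 and 0.00 and edgeR adjusted p-values of 0.979, 0.829 and 0.938. The call of PSMD14 was lost without MEF2C hairpin replicate 1 or 2, and that of PSMD12 without scramble replicate 1, MEF2C hairpin replicate 1 or 2, or when GC content and length were corrected for. Over all 15 alternatives the adjusted p of PSMD14 reached 0.0638 and that of PSMD12 reached 0.0932.

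Among the chaperones that help to assemble the base, PSMD5 and PSMD9 were lower. PSMD9 measured 11.2, 11.6 and 9.42 CPM in the MEF2C hairpin libraries and 12.4, 12.1 and 13.2 CPM in the scramble libraries. The groups did not overlap, but the spread was wide for the change (-0.22 in log2 with SE 0.0772, adjusted p = 0.0305), and the call was lost without scramble replicate 3 or MEF2C hairpin replicate 3 (adjusted p up to 0.208). PSMD5 fell by 0.10 on the log2 scale (edgeR adjusted p = 0.0161), and its call was lost without scramble replicate 2 (adjusted p = 0.0637). PSMD10, also known as gankyrin, averaged 69.6 ± 1.00 CPM in MEF2C hairpin and 66.9 ± 1.85 CPM in scramble libraries (SD, n = 3 each) and did not pass the test (edgeR adjusted p = 0.220). Without the chaperones, 9 of 17 regulatory particle genes were lower and 1 higher. The shares were 15.3% lower and 13.5% higher over all tested genes, and 44.9% and 12.6% over those of at least 100 CPM.

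**Figure D3:**
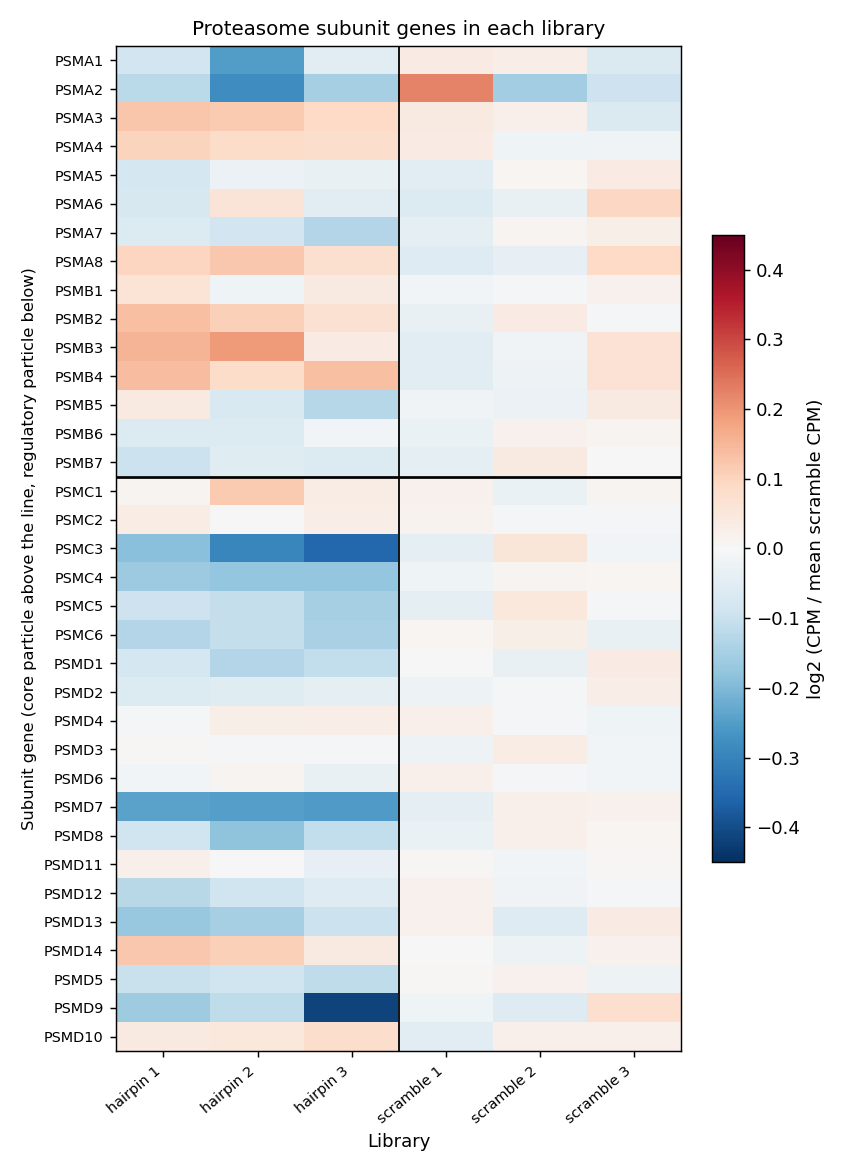
The colour gives log2 of each library's CPM over the mean scramble CPM for the 35 tested members, with MEF2C hairpin libraries in the 3 left columns and scramble libraries in the 3 right columns. The rows of PSMC3, PSMC4 and PSMD7 are blue in all MEF2C hairpin libraries, the rows of PSMB2, PSMB4 and PSMA4 are red there, and many rows show no block of one colour.

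In the beta rings, the genes of 3 subunits that are not proteolytic rose. PSMB4 (ENSG00000159377.11, chromosome 1, 151399534 to 151401944) measured 145, 139 and 144 CPM in the MEF2C hairpin libraries, against 127, 129.6 and 138 CPM in the scramble libraries. The groups did not overlap (0.12 in log2 with SE 0.0276, adjusted p = 0.000978). PSMB2 (ENSG00000126067.12, chromosome 1, 35599544 to 35641844) measured 263, 258 and 251 CPM in the MEF2C hairpin libraries and 234, 246 and 239 CPM in the scramble libraries. Its groups were also apart (0.10 in log2 with SE 0.0233, adjusted p = 0.000543). PSMB3 measured 75.7, 77.7 and 69.7 CPM in the MEF2C hairpin libraries and 65.6, 67.3 and 71.2 CPM in the scramble libraries. The lowest MEF2C hairpin value fell inside the scramble range (0.13 in log2 with SE 0.0368, adjusted p = 0.00548), and the call was lost without MEF2C hairpin replicate 2 and with the correction for GC content and length (adjusted p up to 0.0995). PSMB1, the remaining subunit without a proteolytic site in the constitutive core, averaged 113 ± 3.30 and 111 ± 1.40 CPM in MEF2C hairpin and scramble libraries (SD, n = 3 each; edgeR adjusted p = 0.533).

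Of the constitutive catalytic subunit genes PSMB5, PSMB6 and PSMB7, none rose. PSMB7, which encodes the trypsin-like subunit, measured 178, 183 and 182 CPM in the MEF2C hairpin libraries and 185, 196 and 191 CPM in the scramble libraries, and the difference was -0.07 in log2 (SE 0.0246; edgeR adjusted p = 0.0298). Its groups did not overlap, yet the call was lost under 6 of 15 alternatives, among them leaving out scramble replicate 2 or 3 or MEF2C hairpin replicate 1 (adjusted p up to 0.214). PSMB6, the caspase-like subunit, had 72.3, 72.3 and 74.7 CPM in the MEF2C hairpin libraries and 73.9, 76.4 and 76.0 CPM in the scramble libraries. Its groups overlapped and it did not pass the test (-0.05 in log2 with SE 0.0316, adjusted p = 0.314), although it did with the correction for GC content and length (adjusted p = 0.0177). PSMB5, the chymotrypsin-like subunit and the main target of bortezomib, had 34.0, 31.6 and 30.3 CPM in the MEF2C hairpin libraries and 32.7, 32.5 and 34.0 CPM in the scramble libraries. Its groups overlapped too (-0.05 in log2 with SE 0.0473, adjusted p = 0.484), and its value ran from -0.10 without MEF2C hairpin replicate 1 to -0.02 without MEF2C hairpin replicate 3, with -0.03 without scramble replicate 3. PSMB11, the catalytic subunit of the thymus-specific proteasome of cortical epithelial cells, was not detectable at this depth and was not tested, with 0 reads in every MEF2C hairpin library and 0, 0 and 2 reads in the scramble libraries.

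In the alpha rings, PSMA3 and PSMA4 rose and PSMA7 fell. PSMA7 (ENSG00000101182.15, chromosome 20, 62136735 to 62143440), the most abundant member in CPM, measured 307, 302 and 292 CPM in the MEF2C hairpin libraries and 312, 323 and 326 CPM in the scramble libraries. The groups did not overlap (-0.09 in log2 with SE 0.0228, adjusted p = 0.00165). PSMA4 (ENSG00000041357.16, chromosome 15, 78540405 to 78552419), whose yeast counterpart closes the gate, measured 238, 234 and 234 CPM in the MEF2C hairpin libraries and 227, 218.5 and 219 CPM in the scramble libraries. Every MEF2C hairpin library was above every scramble library (0.09 in log2 with SE 0.0227, adjusted p = 0.00297). PSMA3, another alpha ring gene, measured 93.9, 93.4 and 91.5 CPM in the MEF2C hairpin libraries and 88.4, 87.5 and 82.2 CPM in the scramble libraries. It was also higher without overlap (0.11 in log2 with SE 0.0307, adjusted p = 0.00443), and the call was lost without scramble replicate 3 (adjusted p = 0.0721).

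The remaining alpha genes did not pass the test. PSMA1, PSMA2, PSMA5 and PSMA6 had log2 fold changes of -0.13, -0.19, -0.05 and -0.02 (edgeR adjusted p = 0.0611, 0.277, 0.237 and 0.867), all with overlapping groups. Several alpha genes had few reads for a complex in which each subunit occurs in equal number. Per kilobase of principal transcript, PSMA7 had 302 CPM in MEF2C hairpin and 322 CPM in scramble libraries, whereas PSMA1 had 16.6 and 18.1, PSMA2 had 2.71 and 3.08 and PSMA6 had 23.0 and 23.3 CPM per kb in those groups. In GENCODE 29 another gene on the same strand covers 53.2% of the principal transcript of PSMA1, 52.5% of that of PSMA2 and 81.0% of that of PSMA6. Apart from these, PSMD9 was the only member with same-strand overlap of its principal transcript, at 43.8%. The count tables list ambiguous reads, 3.37 to 3.97% of all, on a line apart from the genes, so the levels of these 4 genes are uncertain. The part of such reads in their fold changes was not tested. With every gene that shares exonic bases with another gene left aside, 2 of 12 core particle genes were lower and 5 higher, and 6 of 11 regulatory particle genes were lower and none higher. Of all tested genes 15.3% were lower and 13.5% higher, and of those of at least 100 CPM 44.9% and 12.6%. PSMA8, the alpha subunit of the testis proteasome that takes the place of PSMA7, was detected at 11.4 ± 0.191 CPM in MEF2C hairpin and 10.7 ± 0.605 CPM in scramble libraries (SD, n = 3 each; edgeR adjusted p = 0.360), or 6.35 and 5.93 CPM per kb. Its level was thus far below that of PSMA7 on the same per-length scale.

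**Figure D4:**
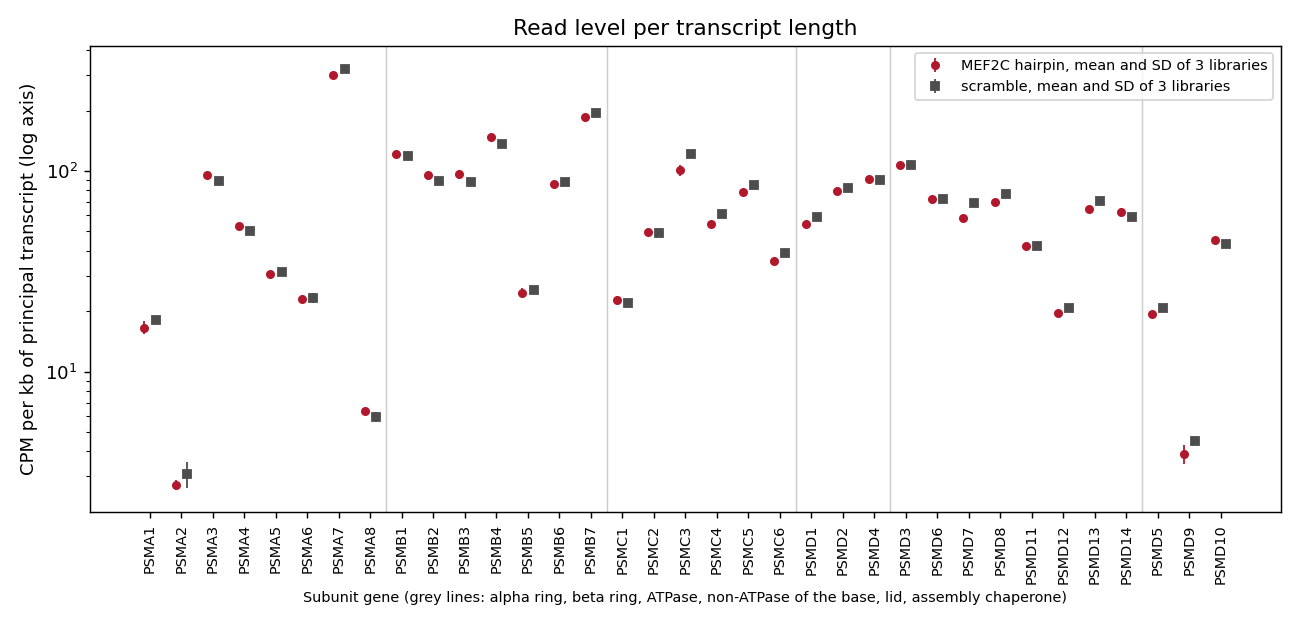
Mean CPM per kb of principal transcript is plotted on a log axis for the 35 tested members, with MEF2C hairpin left of scramble for each gene and bars for the SD of 3 libraries. PSMA7 is highest, and PSMA2, PSMD9 and PSMA8 are lowest, all under 7 CPM per kb.

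Per length, the catalytic genes were ordered PSMB7, PSMB6 and PSMB5, at 185, 85.8 and 24.7 CPM per kb in MEF2C hairpin libraries and 194, 88.5 and 25.6 CPM per kb in scramble libraries. The ATPase genes ran from PSMC1 at 22.8 and 22.0 CPM per kb in MEF2C hairpin and scramble libraries to PSMC3 at 101 and 122 CPM per kb. These distances between genes were larger than the spread between libraries and larger than any change between the groups. They rest on the transcript length chosen for each gene.

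Genes that work with the proteasome changed in both directions. Of 41 genes in 6 companion lists, 16 were lower and 5 higher, against 15.3% lower and 13.5% higher of all tested genes. Of the 20 at or above 100 CPM 11 were lower (55%), against the 44.9% of all genes at that level. Of the 21 below 100 CPM 5 were lower (23.8%). The share of all genes below 100 CPM was not computed separately, but lay under the 15.3% of all levels. PSME3, which encodes the nuclear cap PA28 gamma and had the largest fall in these lists, measured 190.1, 197 and 198 CPM in the MEF2C hairpin libraries and 246, 248 and 249 CPM in the scramble libraries. The groups lay far apart (-0.34 in log2 with SE 0.0228, adjusted p = 7.55e-15). PSME4, another ATP-independent activator, fell by 0.13 on the log2 scale, and the inhibitor gene PSMF1 did not pass the test (edgeR adjusted p = 0.190). Of 6 assembly chaperone genes 3 were lower and none higher: PSMG3 by -0.27 (edgeR adjusted p = 1.39e-06), PSMG1 by -0.10 and PSMG4 by -0.16, the last with a call lost without scramble replicate 2 or 3 or MEF2C hairpin replicate 2 (adjusted p up to 0.208). POMP, the maturation factor of the core, averaged 108 ± 3.96 and 108 ± 4.19 CPM in MEF2C hairpin and scramble libraries (SD, n = 3 each; edgeR adjusted p = 0.924).

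Of 12 proteasome-associated and ubiquitin shuttle genes 6 were lower and none higher. Among them were the proteasome-bound ubiquitin ligase gene UBE3C, at -0.31, the shuttle gene RAD23B, at -0.27, and the deubiquitinase gene USP14, at -0.18 on the log2 scale. RAD23B averaged 258 ± 4.27 CPM in MEF2C hairpin and 311 ± 6.43 CPM in scramble libraries (SD, n = 3 each; SE 0.0222, edgeR adjusted p = 2.1e-12). Of 9 genes of the NRF1 pathway 3 were lower and none higher. NFE2L1, which encodes NRF1, averaged 138 ± 2.13 CPM in MEF2C hairpin and 152 ± 3.74 CPM in scramble libraries (SD, n = 3 each), which was -0.14 in log2 (SE 0.0254; edgeR adjusted p = 5.04e-05). DDI2, the protease that cleaves NRF1 into its active form, averaged 88.1 ± 1.90 CPM in MEF2C hairpin and 110.1 ± 1.57 CPM in scramble libraries (SD, n = 3 each), which was -0.32 in log2 (SE 0.0282; edgeR adjusted p = 1.28e-11). MAFK, a small MAF partner of NRF1, fell by 0.13 on the log2 scale, and 18.1% of its exonic bases are shared with other genes.

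The interferon-inducible subunits and their cap, which trim peptides for MHC class I, were measured through 5 genes. Of these 2 were higher and 1 lower, and the list had its median at 0.07 in log2. PSMB9 rose by 0.27 (SE 0.0611, edgeR adjusted p = 0.000765) to 24.8 ± 2.71 CPM in MEF2C hairpin, against 20.5 ± 0.820 CPM in scramble libraries (SD, n = 3 each). MEF2C hairpin replicate 1, at 27.9 CPM, was the highest library, and without it the difference was 0.18 in log2 (edgeR adjusted p = 0.0260). PSMB8 changed by 0.09 with a call lost without MEF2C hairpin replicate 1, scramble replicate 1 or scramble replicate 2, and after the correction for GC and length (adjusted p up to 0.152), and PSME1 by -0.11 with a call lost without MEF2C hairpin replicate 2 (adjusted p = 0.142). Of 6 ubiquitin and E1 genes 3 were higher and 1 lower. The ubiquitin-activating enzyme gene UBA1 fell by 0.10 (edgeR adjusted p = 0.000399) on the log2 scale. RPS27A, a ubiquitin fusion gene, changed by 0.10 in log2, with a call lost under some alternatives (adjusted p up to 0.168), among them leaving out MEF2C hairpin replicate 1 or 2 or scramble replicate 1. UBB, named after its value was seen, had 0.252 ± 0.0345 CPM in MEF2C hairpin and 0.184 ± 0.164 CPM in scramble libraries (SD, n = 3 each), and 28.4% of its exonic bases are shared with another gene in GENCODE 29.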

How the data were processed

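The authors deposited whole-number read counts per gene, 1 table per library. Per the submitters' processing notes they used Trim Galore, STAR and HTSeq on hg38; versions, annotation release and strand setting are not given in the sources used here. The 5 summary lines that name no gene took 19.2 to 31.4% of reads and stayed out of library sizes and tests. Symbols were matched by Ensembl identifier (77.9% of identifiers), and positions, principal transcripts and exon overlaps came from GENCODE 29 on GRCh38.

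Genes were kept by filterByExpr (minimum count 10), scaled by TMM and tested with edgeR 4.0.16 under R 4.3.3 by a robust quasi-likelihood fit with a single term for the group. Fold changes put MEF2C hairpin over scramble on the log2 scale, and each SE is the size of that value divided by the square root of F. Alternatives were other scalings and filters, leaving out each library, a replicate block, a correction for GC content and length, DESeq2 1.42.0 and limma-voom (limma 3.58.1).

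Values in every library are given for PSMB5, PSMB6, PSMB7 and for up to 5 largest called increases and 5 largest called decreases per particle. From each companion list up to 4 called genes with the smallest adjusted p are named; PSMF1, POMP and UBB were added after their values were seen. Some companion genes that the rule names are not reported here. The members and lists were chosen with earlier results of these data known.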

Additional observations from a re-analysis of the deposited data

How the results depend on the processing

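Single genes were recomputed under 15 alternatives only for the called subunit genes, PSMB5, PSMB6 and the companion genes picked by the naming rule, and none of these changed direction. Of 19 called subunit genes 12 stayed called under every alternative, 4 of 7 in the core and 8 of 12 in the regulatory particle, and of 19 named companion genes 14 did. The number of core particle genes lower was 2 and became 1 with upper-quartile scaling, no filter or the filter of 1 CPM in 3 libraries; leaving out single libraries gave 1 to 3. The regulatory particle median of -0.096 became -0.085 with upper-quartile scaling, -0.084 with the filter of 1 CPM, -0.073 with the correction for GC content and length and -0.074 with that correction and the replicate block, and ranged from -0.097 to -0.087 when single libraries were left out. The core particle median ranged from -0.048 to 0.034 and the core minus regulatory difference, 0.079 with all libraries, from 0.040 to 0.126 when single libraries were left out. With the correction for GC content and length the core median was 0.011, and with that correction and the replicate block it was 0.009. The causes were not tested. Replicate numbers did not pair the samples: same-numbered libraries' deviations from their group means correlated at -0.102, 0.019 and 0.0327, and a replicate block gave 6 subunit genes higher and 13 lower, the same counts as without it. Standard errors of the tested members ran from 0.0216 to 0.125 in log2, so that a difference of 0.10 passed the test in PSMB2 and did not in the low gene PSMA8.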
